A study of Mus musculus with 12 samples.

Results

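The replication-dependent histone cluster genes are the genes of the mouse histone clusters that the array names Hist1h to Hist4h followed by the histone type. They were chosen by name alone, as every symbol on the array that begins with Hist1h, Hist2h, Hist3h or Hist4h. The rule found 59 symbols, with 89 probes, among 30789 symbols on the array. Of these, 46 belong to the Hist1 cluster on chromosome 13, 9 to the Hist2 cluster on chromosome 3, 3 to the Hist3 cluster on chromosome 11 and 1 is the Hist4 gene on chromosome 6. By type they are 6 linker histone H1 genes, 17 H2A, 15 H2B, 9 H3 and 12 H4 genes.

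The study profiled mouse cells on 12 Illumina bead arrays, to compare leukaemic cells that do and do not respond to a self antigen. PtC is phosphatidylcholine, an antigen bound by many B-1 B cells, and TCL1 is an oncogene that, when B cells of mice carry it as a transgene, leads to a counterpart of chronic lymphocytic leukaemia (CLL). The groups were TCL1-192 PtC+ and PtC- cells from the spleen (2 arrays each), TCL1-192 PtC+ and PtC- cells from the peritoneal cavity (2 arrays each), young TCL1 PtC+ and PtC- peritoneal cells (1 array each) and wild type PtC+ and PtC- peritoneal cells (1 array each). The labels put all 12 samples on 1 mixed C3H and C57BL/6 background and call all of them CLL cells, the wild type ones included. The sources used here do not give the promoter that drives TCL1, the meaning of 192, the ages of the mice, the sorting gates or the number of animals behind each array. The p-values therefore measure the spread between these arrays, which may be technical, and the fit took the lone wild type and young TCL1 arrays to have the spread of the TCL1-192 pairs.

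Histone cluster genes encode the proteins that package newly made DNA. H2A, H2B, H3 and H4 form the core of the nucleosome, and H1 binds the linker DNA between nucleosomes. Their transcription and the stability of their mRNAs are tied to S phase, so that their mRNAs are abundant while DNA is being replicated and are lost when replication ends. Most of these mRNAs lack a poly(A) tail and end in a stem-loop bound by the protein Slbp. Some cluster genes can also give polyadenylated mRNAs, as is known in human cells for HIST1H1C, HIST1H2AC and HIST2H2BE.

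Promoters of 6 members are shown because these members are among those with the largest called differences of their histone type. Each sequence is the 250 bases before the RefSeq transcription start on build GRCm38.p6, read 5′ to 3′ on the gene's own strand. Capitals mark matches, on either strand, to CCAAT, to the TATA box letters TATAAA, to AAACACA, a motif of H1 promoters, and to GGTCCG, a motif of H4 promoters. Hist2h2ab (now H2ac21) is at chr3:96219635-96219884 on the plus strand. Hist1h2ag (now H2ac11) is at chr13:22042950-22043199 on the minus strand, Hist1h2bn (now H2bc15) at chr13:21753826-21754075 on the plus strand and Hist1h3d (now H3c4) at chr13:23575513-23575762 on the plus strand. Hist1h4i (now H4c9) is at chr13:22041363-22041612 on the minus strand and Hist1h1c (now H1f2) at chr13:23738557-23738806 on the plus strand.
Hist2h2ab: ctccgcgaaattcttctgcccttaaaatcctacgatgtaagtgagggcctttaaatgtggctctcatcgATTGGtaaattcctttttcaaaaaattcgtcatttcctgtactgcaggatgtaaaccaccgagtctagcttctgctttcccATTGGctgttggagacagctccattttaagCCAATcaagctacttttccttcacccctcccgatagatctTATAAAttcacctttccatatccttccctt
Hist1h2ag: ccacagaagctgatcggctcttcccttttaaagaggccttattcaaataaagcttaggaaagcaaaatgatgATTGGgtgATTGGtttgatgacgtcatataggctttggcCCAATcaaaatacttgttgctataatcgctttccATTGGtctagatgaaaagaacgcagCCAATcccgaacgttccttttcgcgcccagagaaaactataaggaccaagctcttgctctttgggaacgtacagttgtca
Hist1h2bn: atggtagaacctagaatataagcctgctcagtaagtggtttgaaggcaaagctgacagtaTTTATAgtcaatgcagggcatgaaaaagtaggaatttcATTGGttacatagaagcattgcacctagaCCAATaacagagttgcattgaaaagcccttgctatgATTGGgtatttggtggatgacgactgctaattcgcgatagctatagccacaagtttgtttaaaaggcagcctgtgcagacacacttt
Hist1h3d: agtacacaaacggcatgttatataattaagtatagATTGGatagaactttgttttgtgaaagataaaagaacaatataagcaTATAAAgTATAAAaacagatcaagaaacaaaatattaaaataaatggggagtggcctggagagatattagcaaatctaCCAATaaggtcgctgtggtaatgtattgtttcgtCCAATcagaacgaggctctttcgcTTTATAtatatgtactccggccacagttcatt
Hist1h4i: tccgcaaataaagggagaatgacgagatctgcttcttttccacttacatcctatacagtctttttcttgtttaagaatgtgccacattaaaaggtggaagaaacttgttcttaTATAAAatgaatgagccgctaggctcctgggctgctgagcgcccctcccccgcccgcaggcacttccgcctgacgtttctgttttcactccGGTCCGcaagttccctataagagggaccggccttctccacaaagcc
Hist1h1c: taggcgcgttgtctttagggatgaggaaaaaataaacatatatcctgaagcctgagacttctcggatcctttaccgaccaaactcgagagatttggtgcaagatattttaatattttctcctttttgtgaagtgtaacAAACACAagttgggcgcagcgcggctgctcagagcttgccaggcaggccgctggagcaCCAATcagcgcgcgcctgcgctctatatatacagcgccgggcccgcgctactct

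Matches to these motifs were counted in the RefSeq promoter table, which reaches from 250 bases before to 50 bases after the start and held 54 promoters of 53 members. CCAAT (either strand) was in 85.2% of members' promoters, against 37.4% of all 32851 promoters. All 6 H1, 17 H2A, 13 H2B and 7 H3 promoters held it, and 3 of 11 H4 promoters did. GGTCCG was in 10 of 11 H4 promoters and AAACACA in 5 of 6 H1 promoters, against 8.25% and 7.18% of all promoters. The octamer ATTTGCAT, a binding motif of OCT transcription factors, was in 7 of 13 H2B and 7 of 17 H2A promoters, against 1.74% of all promoters. It was in none of the other types. Some H2A and H2B genes start close together on opposite strands, so their windows overlap and 1 match can count for both. TATAAA was in 57.4% of members' promoters and 13.6% of all promoters. TTTGGCGC, an E2F motif, was in 0 of 54 members' promoters and in 0.514% of all promoters. In the 250 bases shown, Hist1h2ag has 5 CCAAT matches, Hist2h2ab, Hist1h2bn and Hist1h3d have 3 each, Hist1h1c has 1 and Hist1h4i has 0. These matches describe letters in the window and say nothing of binding.

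Each array held 45281 probes. Between 10711 and 15192 of them were detected (a detection p under 0.05), and the array with the fewest, PtC- peritoneal TCL1-192 replicate 2, had a raised background. Its median raw signal was 219, against 99.4 to 121 on the others. Results that rest on this array are given below also without it. The B cell markers Cd79b, Ms4a1, Cd22 and Blnk were detected on all 12 arrays, while Pax5 was not detected often enough to be tested. Marker genes of other cells moved with the groups, and their part in the results below was not tested. The summed signal of 9 macrophage markers was 1398 to 1559 on splenic TCL1-192 arrays, 6363 to 11360 on peritoneal TCL1-192 arrays, 13422 to 14837 on young TCL1 arrays and 16805 to 21893 on wild type arrays. That of 4 erythroid markers was 1104 to 1798 in TCL1-192 spleen, 19531 to 33430 in TCL1-192 peritoneum, 464 to 2557 in young TCL1 and 150 to 270 in wild type cells. That of 5 mast cell markers was 141 to 209 on the 8 TCL1-192 arrays, 1494 to 1675 on young TCL1 and 2009 to 2834 on wild type arrays. That of 5 T cell markers was 482 to 658 in TCL1-192 spleen, 724 to 919 in TCL1-192 peritoneum, 494 to 2166 in young TCL1 and 1230 to 1738 in wild type cells. These 5 did not move together. Lck, the brightest in TCL1-192 cells, averaged 9.29 (log2) in TCL1-192 peritoneum, 8.54 in young TCL1 and 8.75 in wild type cells. Cd3g averaged 5.61 in TCL1-192 peritoneum against 9.41 in wild type cells, and Cd3d 6.51 against 6.17. Cd3e and Thy1 were detected on 0 of 4 arrays of either TCL1-192 tissue.

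A member was tested where a probe was detected on at least 2 arrays, and its probe with the highest mean was used. This held for 51 of the 59 members: 3 of 6 H1, 15 of 17 H2A, 12 of 15 H2B, 9 of 9 H3 and 12 of 12 H4 genes. Of the 8 others, 7 were detected on no array and Hist1h2aa on 1. Of the 51, 38 were detected on all 12 arrays. Values are background-corrected, quantile-normalised log2 signals, which reached at most 15.48 on every array. The brightest members sat near that ceiling: Hist1h2ao, Hist1h2af and Hist2h2ac, which encode H2A, averaged 14.73, 14.73 and 14.70 over the 12 arrays. Their differences are compressed there by an amount that was not measured. Many members are near-identical in sequence and probe sequences were not used here, so 1 probe may read several genes. Of the members, 18 had several usable probes. These did not always give the same difference, which is said below for only some of them.

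In the peritoneum, TCL1-192 cells had higher histone cluster signals than wild type cells. Of 51 tested members, 36 were higher in TCL1-192 cells (limma, adjusted p under 0.05 over 13190 genes) and 0 were lower. Over all genes, 27.4% passed the test in either direction, and 11.8% were higher. The median difference of the members was 1.02 on the log2 scale, against 0.03 for all genes tested, and 50 of 51 were above 0. The rise ran through all types: 10 of 15 H2A genes, 9 of 12 H4, 7 of 9 H3, 9 of 12 H2B and 1 of 3 H1 genes were higher. Median differences were 1.28 for H2A, 1.19 for H4, 1.05 for H1, 0.96 for H3 and 0.77 for H2B. In bulk cells, a larger share of cells in S phase and more histone mRNA per cell cannot be told apart. The signals read only the histone mRNAs that were labelled, and the share of these with a poly(A) tail was not measured.

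The largest single differences in this comparison were those of H2A genes. Hist2h2ab had 10.57 and 10.53 in PtC+ and 10.44 and 10.66 in PtC- TCL1-192 cells, against 7.75 in PtC+ and 8.06 in PtC- wild type cells. All 4 TCL1-192 arrays lay far above both wild type arrays, with no difference of that size between PtC classes. The difference was 2.64 ± 0.15 (log2, SE), or 6.25-fold (adjusted p = 3.3e-05). Hist1h2ag had 10.94, 11.00, 10.93 and 10.99 on the peritoneal TCL1-192 arrays, against 8.24 and 8.42 on the wild type arrays, a 6.22-fold difference (adjusted p = 2.5e-05). Hist1h2an was 4.10-fold higher (adjusted p = 0.00027). By contrast the H2A genes Hist2h2aa1 and Hist2h2aa2 differed by 0.23 ± 0.22 and 0.14 ± 0.28, with adjusted p of 0.48 and 0.74. The 3 probes of Hist2h2aa1 ranged from -0.12 to 0.23.

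Among H4 genes, Hist1h4i had 10.18 and 10.40 in PtC+ and 9.98 and 10.04 in PtC- TCL1-192 cells, against 8.07 and 8.24 in wild type cells. These sets did not overlap, and the difference was 1.99 ± 0.17 (adjusted p = 0.00023). Hist1h4m and Hist1h4f were 3.74-fold and 3.17-fold higher (adjusted p = 0.00052 and 0.0012). Hist2h4 and Hist4h4, the H4 genes outside the Hist1 cluster, differed by 0.05 ± 0.20 and 0.11 ± 0.35, with adjusted p of 0.86 and 0.84. Both were dim. Hist2h4 had 6.03 to 6.59 on the TCL1-192 arrays, against 6.19 and 6.44 on the wild type arrays. Hist4h4 had 5.09 to 6.64, against 5.25 and 5.86, and was detected on only 7 arrays of the study. Its difference therefore cannot show whether it changed. The H3 genes Hist1h3f, Hist1h3d and Hist1h3a were 3.05-, 2.62- and 2.54-fold higher (adjusted p = 0.0029, 0.0017 and 0.0015). For Hist1h3f the 2 probes differed, at 0.73 and 1.61 on the log2 scale. H2B genes moved less: Hist2h2be was 2.90-fold, Hist1h2bn 2.02-fold and Hist1h2bf 1.87-fold higher (adjusted p = 0.0028, 0.0077 and 0.0042). Without the wild type PtC+ array the last 2 had adjusted p of 0.056 and 0.065. The linker histone gene Hist1h1c had 11.18 to 11.38 on the 4 TCL1-192 arrays, against 9.78 and 9.66 on the wild type arrays. It was 2.96-fold higher (adjusted p = 0.00046), and both of its probes passed the test.

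**Figure D1:**
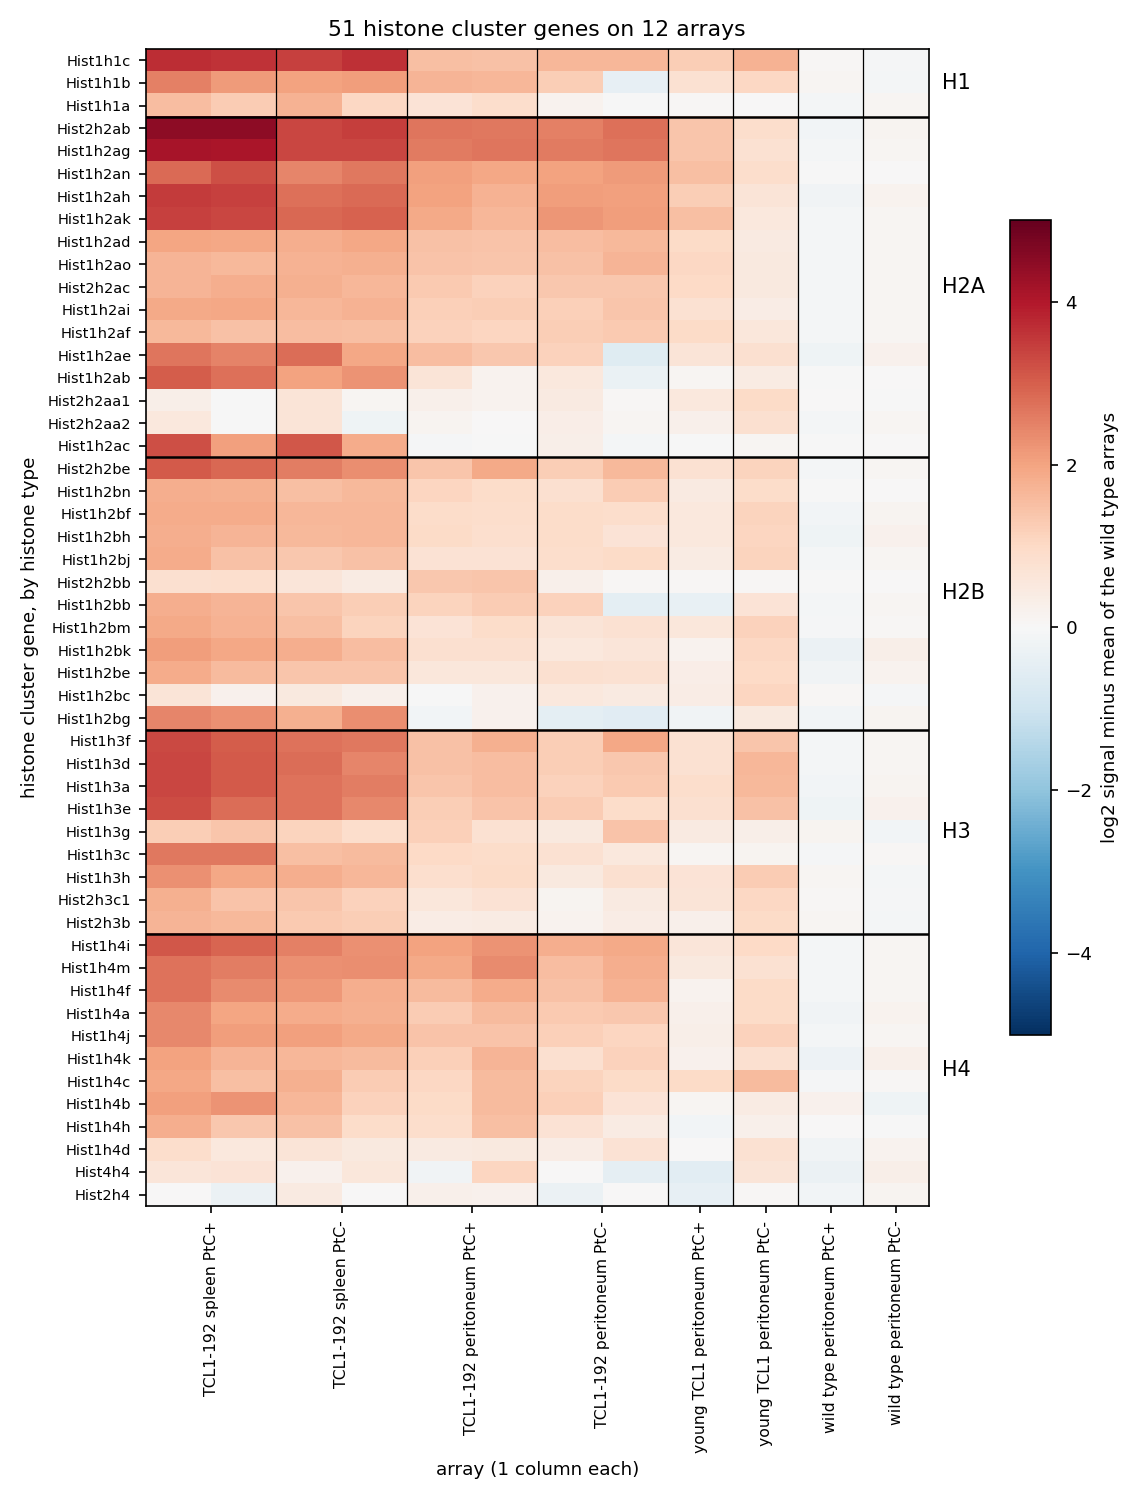
Colour map of 51 tested histone cluster genes (rows, grouped by type) on 12 arrays (columns); colour is the log2 signal minus the mean of the 2 wild type arrays of that gene. The 4 splenic TCL1-192 arrays are the reddest and Hist2h2ab and Hist1h2ag the reddest H2A rows, while Hist2h2aa1, Hist2h2aa2, Hist2h4 and Hist4h4 stay pale. Of these pale rows, Hist4h4 was detected on only 7 of 12 arrays.

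For 40 of 51 members every peritoneal TCL1-192 array lay above both wild type arrays, as it did for 19.8% of all genes. Without the wild type PtC+ array the members' median was 0.85, against 1.02 with it, and that of all genes was 0.002. Fewer than 36 members were then higher, and a smaller share of all genes passed too. Without the array of raised background the members' median was 1.17. S phase genes rose as well: 22 of 27 genes of DNA replication were higher (median 1.65), against 11.8% of all genes. Among them were Rrm2, Tk1, Gins2 and Gins1 at 7.42-, 6.79-, 6.44- and 5.65-fold. All 9 tested genes of G2 and mitosis were higher, with a median of 3.31.

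Set against young TCL1 cells, peritoneal TCL1-192 cells were higher in 15 of 51 members and lower in 0, and the members were mostly H2A and H4 genes. Over all genes, 19.7% passed in either direction and 7.94% were higher. The 15 were 9 of 15 H2A genes, 4 of 12 H4, 1 of 12 H2B, 1 of 9 H3 and 0 of 3 H1 genes. Median differences were 0.73 for H4 and 0.68 for H2A, against 0.17 for H1, 0.10 for H3 and 0.07 for H2B. No test compared the types with each other.

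Hist1h2ag, at 10.93 to 11.00 on the 4 TCL1-192 arrays, had 9.73 in PtC+ and 9.09 in PtC- young TCL1 cells. Its 2.94-fold difference was the largest of the members (adjusted p = 0.00049). Hist2h2ab had 9.29 and 8.79 in PtC+ and PtC- young TCL1 cells, and TCL1-192 cells were 2.86-fold higher (adjusted p = 0.00072). Hist1h2ah was 2.02-fold higher (adjusted p = 0.005), with an adjusted p of 0.1 without the young PtC- array. Hist1h4m, Hist1h4i and Hist1h4f were 2.42-, 2.28- and 2.13-fold higher (adjusted p = 0.0043, 0.0034 and 0.01). All 3 H4 genes lost the call without the young PtC+ array, at adjusted p of 0.074, 0.06 and 0.2. The 2 probes of Hist1h4m differed, at 0.57 and 1.27.

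The called H2B and H3 genes, Hist2h2bb and Hist1h3c, were undetected on both young arrays and detected on 2 of 4 TCL1-192 arrays, so their folds are at least 1.02 and 1.08 (adjusted p = 0.019 and 0.022). Both calls were lost when undetected values were put at the detection limit, at adjusted p of 0.12 and 0.27, and without the young PtC+ array, at 0.8 and 0.19. Hist1h3c also lost it without peritoneal PtC+ replicate 1 or either splenic PtC- array, at 0.051 to 0.053. Of 21 H2B and H3 genes, 10 lay within 0.2 of 0 here, 7 above and 4 below, over a range of -0.42 to 0.72. Hist1h2bf differed by 0.09 ± 0.14 (95% interval -0.25 to 0.42) and Hist1h3a by 0.10 ± 0.17 (-0.30 to 0.49). Hist1h1c differed by 0.08 ± 0.15 (-0.28 to 0.43). For 20 members every TCL1-192 array lay above both young arrays, against 15.4% of all genes. Without the young PtC+ array the median difference of the members was -0.014, against 0.33 with it, and that of all genes was -0.020. Fewer members and a smaller share of all genes then passed. Without the array of raised background the members' median was 0.37. With all arrays, 19 of 27 S phase genes and 9 of 9 G2 and mitosis genes were higher than in young TCL1 cells, against 7.94% of all genes. Their medians were 1.29 and 2.54.

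Young TCL1 cells were higher than wild type cells in 7 of 51 members and lower in 0, against 0.607% of all genes higher and 1.52% in either direction. The 7 were the H1 gene Hist1h1c, the H3 genes Hist1h3a and Hist1h3d, and the H2A genes Hist1h2an, Hist2h2ab, Hist1h2ag and Hist1h2ak. At an unadjusted p under 0.05 there were 34, against 11.7% of all genes, and the median difference was 0.72. Hist1h1c had 10.94 in PtC+ and 11.47 in PtC- young TCL1 cells, against 9.78 and 9.66 in wild type cells. Both young arrays lay above both wild type arrays, by 1.49 ± 0.17 (2.81-fold, adjusted p = 0.011). Hist1h3a and Hist1h3d were 2.37- and 2.32-fold higher (adjusted p = 0.033 and 0.043). Hist1h2an, Hist2h2ab, Hist1h2ag and Hist1h2ak were 2.31-, 2.19-, 2.12- and 2.02-fold higher, with adjusted p of 0.041, 0.033, 0.03 and 0.045.

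Median differences by type were 0.97 for H3, 0.89 for H1, 0.74 for H2A, 0.70 for H2B and 0.54 for H4. For 40 members both young arrays lay above both wild type arrays, against 18.9% of all genes. With 1 array a group the count was loose. Leaving out any 1 of the 12 arrays gave 0 to 15 members, with 14 without the array of raised background. The members' median was 0.56 without the wild type PtC- array and 0.56 without the young PtC- array. It was 0.73 without the wild type PtC+ array and 0.73 without the young PtC+ array. Within each PtC class the 2 values were nearly equal, so they are not separate checks. None of the 27 S phase genes and none of the 9 G2 and mitosis genes passed the limma test here, where 10 and 7 had an unadjusted p under 0.05. Their medians were 0.39 and 1.10. The 3 peritoneal comparisons share arrays, so their results are not independent of each other.

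**Figure D2:**
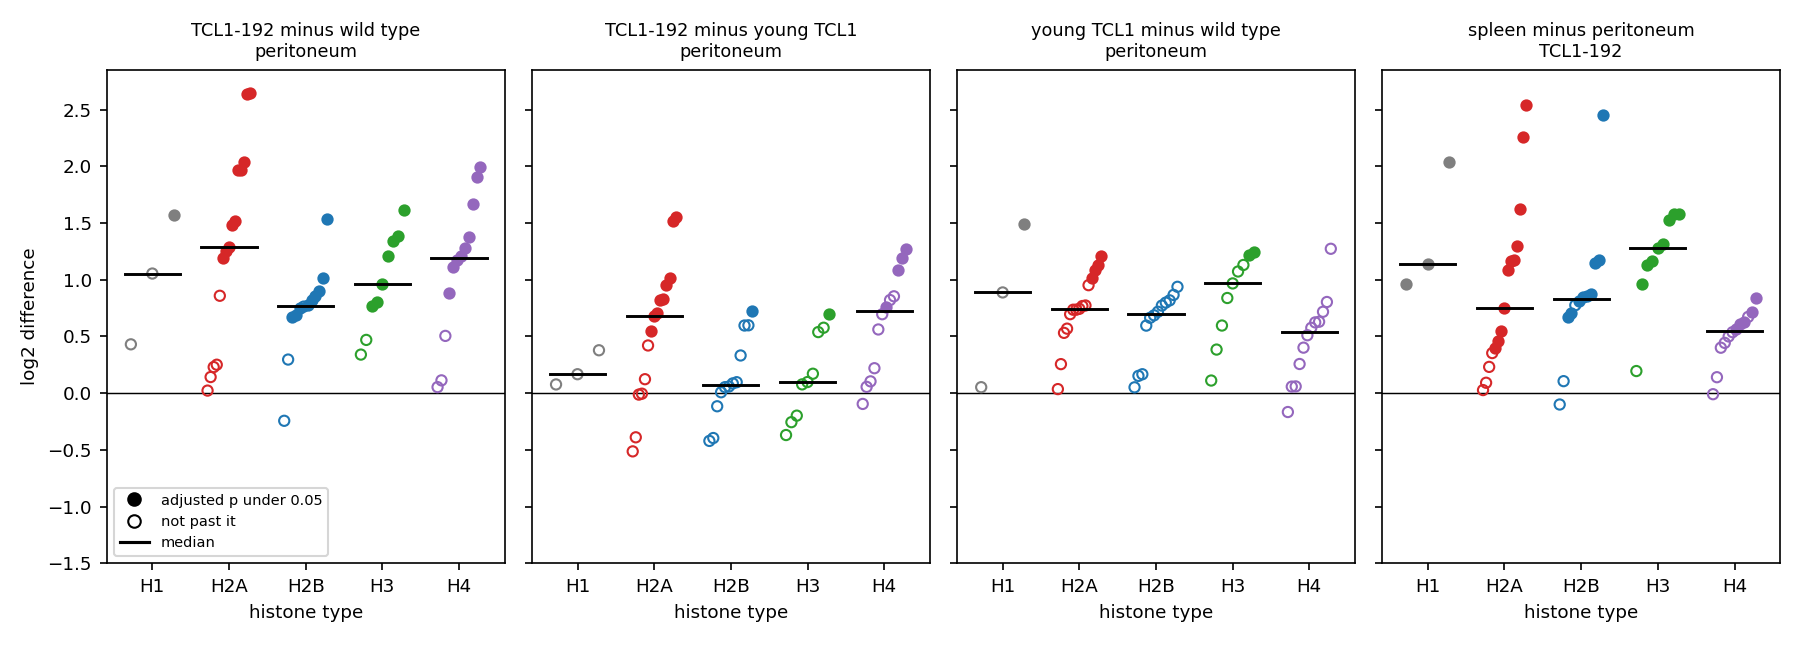
Log2 differences (vertical axis) of 51 tested members by histone type in 4 comparisons; each point is 1 gene, filled where the adjusted p was under 0.05, and bars are medians. In TCL1-192 minus young TCL1 the filled points are mainly H2A and H4, with medians of 0.68 and 0.73, while H2B and H3 medians lie at 0.07 and 0.10.

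Within TCL1-192 cells, histone cluster signals were higher in the spleen than in the peritoneum. Of 51 members, 36 were higher and 0 lower, against 15.5% of all genes higher and 26.7% in either direction. The median difference was 0.81, against -0.02 for all genes. By type, 8 of 9 H3 genes, 3 of 3 H1, 9 of 12 H2B, 11 of 15 H2A and 5 of 12 H4 genes were higher. Medians were 1.28 for H3, 1.14 for H1, 0.83 for H2B, 0.75 for H2A and 0.55 for H4. The H2A median is not to be ranked against the others, since several H2A genes lay near the ceiling of 15.48. Hist1h2ad, Hist1h2af, Hist1h2ai, Hist1h2ao and Hist2h2ac had 15.06 to 15.39 on the splenic arrays and showed differences of 0.23 to 0.54. Second probes showed 1.01 for Hist1h2ad, 0.64 for Hist1h2af, 0.60 for Hist1h2ai and -0.12 for Hist2h2ac.

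Among the largest differences were members that were dim or undetected in the peritoneum. The H2A gene Hist1h2ac had 8.11 and 6.98 in PtC+ and 8.02 and 6.76 in PtC- splenic cells, and was undetected on all 4 peritoneal TCL1-192 arrays. It was at least 3.05-fold higher in the spleen (adjusted p = 0.0029), and replicate 1 of both splenic groups was higher than replicate 2 by more than 1 log2 unit. The H2B gene Hist1h2bg had 7.75 and 7.58 in PtC+ and 7.09 and 7.61 in PtC- splenic cells and was likewise undetected on the 4 peritoneal arrays. It was at least 3.13-fold higher (adjusted p = 0.00025). Neither was detected on the wild type arrays. Of the 2 young TCL1 arrays, the PtC- one detected Hist1h2bg and neither detected Hist1h2ac. Hist1h2ab, detected on 2 of 4 peritoneal TCL1-192 arrays and on both young arrays, was 4.79-fold higher (adjusted p = 0.00093).

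Hist1h1c had 13.15 to 13.41 on the 4 splenic arrays, against 11.18 to 11.38 on the 4 peritoneal TCL1-192 arrays. These ranges were narrow and far apart, and the difference of 2.03 ± 0.12 (4.09-fold, adjusted p = 0.00014) appeared on both probes. The other H1 genes, Hist1h1b and Hist1h1a, were 2.20- and 1.94-fold higher (adjusted p = 0.045 and 0.011). Hist1h1b lost its call without any 1 of the TCL1-192 arrays other than the peritoneal PtC- ones, at adjusted p of 0.091 to 0.15. Hist1h1a lost it without splenic PtC+ replicate 1, at an adjusted p of 0.051.

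Among H3 genes, Hist1h3a had 10.80 and 10.51 in PtC+ and 10.17 and 10.01 in PtC- splenic cells, against 8.83, 9.0, 8.60 and 8.75 on the peritoneal TCL1-192 arrays. It was 2.98-fold higher (adjusted p = 0.00061), beside 2.99-fold for Hist1h3e (adjusted p = 0.0013) and 2.88-fold for Hist1h3d (adjusted p = 0.00083). Hist1h2ae, an H2A gene, was 3.08-fold higher (adjusted p = 0.021). That call was lost without any 1 of the PtC+ arrays of either tissue or without splenic PtC- replicate 1, at adjusted p of 0.06 to 0.084. Among H2B genes Hist2h2be was 2.25-fold higher (adjusted p = 0.0044), but its second probe showed 0.04 on the log2 scale against 1.17, and Hist1h2bk was 2.21-fold higher (adjusted p = 0.0014). Among H4 genes Hist1h4j, Hist1h4i and Hist1h4a were 1.79-, 1.64- and 1.54-fold higher (adjusted p = 0.0053, 0.0095 and 0.022). The Hist1h4a call was lost without replicate 1 of either PtC+ group or without either splenic PtC- array, at adjusted p of 0.063 to 0.083.

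Each splenic array lay above each peritoneal TCL1-192 array for 35 members, against 16.9% of all genes. The count was 36 without the array of raised background and 26 to 37 over all 8 TCL1-192 arrays left out in turn. Of 27 S phase genes 6 were higher and 1 was lower in the spleen, a share near the 26.7% of all genes. Their median was 0.27, against -0.02 for all genes and 0.81 for the members. Of 9 G2 and mitosis genes 1, Mki67, was higher. Macrophage marker signal, summed above, was lower in all 4 splenic than in all 4 peritoneal arrays. It was lower in TCL1-192 than in wild type peritoneum too. Erythroid marker signal, also summed above, was lower in the spleen but higher in TCL1-192 than in wild type peritoneum. The part of either in the histone differences was not tested. The 9 macrophage markers did not all follow their sum. In the spleen 7 were lower and 0 higher, where 26.7% of all genes passed. Against wild type 6 were lower and 1 higher, where 27.4% passed. The higher one, Cd68, was 1.98-fold above wild type (adjusted p = 0.014) and differed by 0.22 on the log2 scale between spleen and peritoneum. Marco differed from wild type by -0.08. Of 3 tested neutrophil markers, S100a8 and S100a9 were higher in the spleen, at least 2.16-fold and 1.32-fold (adjusted p = 0.0055 and 0.04). None of the 3 was detected on the 4 peritoneal TCL1-192 arrays, and their part in the result was not tested.

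**Figure D3:**
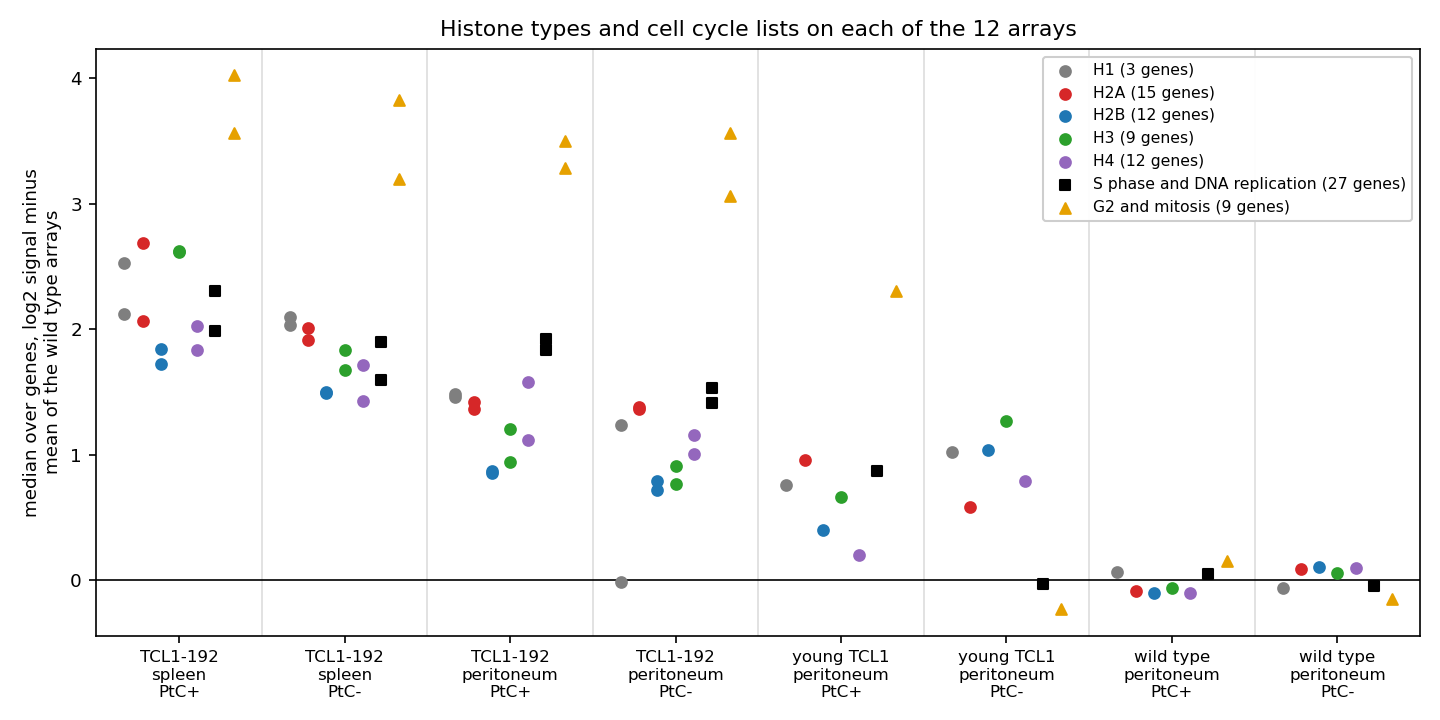
Median log2 signal minus the wild type mean (vertical axis) for 5 histone types and 2 cell cycle lists on each of 12 arrays, by group from splenic TCL1-192 to wild type; each point is 1 array. The H2A median passes the S phase median on 3 of 4 splenic arrays. The highest splenic H3 and H1 medians, 2.63 and 2.53, also lie above the highest splenic S phase median, 2.31. On the 4 peritoneal TCL1-192 arrays all types lie below the S phase median. On the young PtC- array the histone types lie at 0.58 to 1.27, while the S phase and mitosis medians lie at -0.03 and -0.23.

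PtC+ and PtC- TCL1-192 cells did not differ in any member past the threshold. Over both tissues 0 of 51 members passed (limma, adjusted p under 0.05), as did 0% of all genes, and 11 members had an unadjusted p under 0.05, against 8.56% of all genes. Signs leaned to PtC+: 42 of 51 members were above 0, against 6938 of all 13190 genes, with medians of 0.28 and 0.02. The S phase list leaned the same way, with 23 of 27 genes above 0 and a median of 0.21. Since 1 probe may read several members, these signs are not independent of each other. In the spleen alone 48 members were above 0, against 6542 of all 13190 genes, with a median of 0.31. There 12 had an unadjusted p under 0.05, against 2.56% of all genes. In the peritoneum alone 4 members had an unadjusted p under 0.05, against 19.3% of all genes. There 34 were above 0, against 6896 of all 13190 genes, with a median of 0.12. That median was 0.42 with median centring, 0.23 without peritoneal PtC+ replicate 1, 0.03 without PtC+ replicate 2, 0.08 without PtC- replicate 1 and 0.17 without PtC- replicate 2. In neither tissue did a member pass, as was so for 0% of all genes. H3 medians were 0.45 in the spleen and 0.22 in the peritoneum, H4 medians 0.31 in both, and H2A medians 0.21 and -0.12.

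Hist2h2ab was high in splenic PtC+ cells, at 12.38 and 12.39, against 11.26 and 11.36 in splenic PtC- cells. The splenic difference was 1.07 ± 0.17 (95% interval 0.67 to 1.48), with an adjusted p of 1. In the peritoneum the same gene differed by 0.00 ± 0.17 (-0.40 to 0.41, adjusted p = 0.99). The difference between the tissues, 1.07 ± 0.25, had an adjusted p of 0.41 over all genes, and of 0.03 without peritoneal PtC- replicate 1. Picked out after their values were seen, the H2A genes Hist1h2ag, Hist1h2ah and Hist1h2ak gave the same pattern, with differences between the tissues of 0.77, 0.87 and 0.85 (adjusted p of 0.41 each). For this difference between tissues 0 of 51 members and 0% of all genes passed, and 7 members had an unadjusted p under 0.05, against 11.5% of all genes.

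Hist1h3c had 7.41 and 7.42 in PtC+ and 6.29 and 6.39 in PtC- splenic cells, a difference of 1.08 ± 0.18 (adjusted p = 1), and 0.34 ± 0.18 in the peritoneum (adjusted p = 0.33), where it was undetected on both PtC- arrays and the value turned to -0.27 when undetected signals were put at the detection limit. Hist2h2bb was detected on all 4 PtC+ and on 0 of 4 PtC- TCL1-192 arrays, at levels just over the detection limit, so PtC+ cells were at least 1.04-fold higher (adjusted p = 0.58). Hist1h1b differed by 0.77 ± 0.34 and Hist1h4i by 0.43 ± 0.13 over both tissues, each with an adjusted p of 0.58. Without peritoneal PtC- replicate 1, 6 of 51 members (11.8%) passed over both tissues, against 11.6% of all genes. In the peritoneum 4 (7.84%) then passed, against 21.0% of all genes, and for the difference between tissues 4, against 12.5%. These shares were near or below those of all genes, and the array then left to stand for peritoneal PtC- cells is the one of raised background. Without that array 0 members and 0% of all genes passed in any of the 4, with medians of 0.28 over both tissues, 0.32 in the spleen, 0.17 in the peritoneum and 0.17 for the difference between tissues. The genotype difference in PtC+ cells minus that in PtC- cells passed for 0 of 51 members, against 0.311% of all genes (0.288% higher), with 2 members at an unadjusted p under 0.05, against 5.39% of all genes. It passed for 4 without peritoneal PtC- replicate 1, against 6.28% of all genes, and for 0 without the array of raised background, against 0.47%.

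In young TCL1 cells, with 1 array a side and so no test, the types parted. The PtC+ array was higher for 10 of 15 H2A genes (median 0.49) and lower for all 12 H2B genes (median -0.62), 8 of 9 H3 genes (median -0.64) and all 12 H4 genes (median -0.60). Hist1h2ak had 12.96 on the PtC+ array, against 11.97 on the PtC- array. Hist1h3d had 8.96 on the PtC+ array, against 9.85 on the PtC- array. By size, 5 members were higher by at least 0.5 on the log2 scale and 24 lower by at least 0.5, against 18.7% and 16.9% of all genes.

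In the same pair the S phase list was higher on the PtC+ array for 25 of 27 genes, with a median of 1.05, the direction of most H2A genes and opposite to that of H2B, H3 and H4. The summed signal of 5 T cell markers was 494 on the PtC+ and 2166 on the PtC- array, and its part in this pattern was not tested. In wild type cells, also with 1 array a side, the members' median was -0.18, with type medians of 0.12 for H1, -0.12 for H3, -0.18 for H2A, and -0.20 for both H2B and H4. There, 0 members were higher and 3 lower by at least 0.5, against 10.1% and 8.66% of all genes.

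Members that start close together differed in size of change in several comparisons. Within the Hist1 cluster, 6 pairs of an H2A and an H2B gene are transcribed head to head, with RefSeq starts 164 to 281 bases apart, and both genes were tested in 5 pairs. The pair of Hist1h2ae and Hist1h2bg is left out here, since Hist1h2bg was undetected on 7 of 12 arrays. For TCL1-192 minus wild type the H2A gene had the larger difference in 4 of 4 pairs. Hist1h2ag and Hist1h2bj, 249 bases apart, differed by 2.64 and 0.82. Hist1h2ah and Hist1h2bk, 178 bases apart, differed by 1.97 and 0.69, and Hist1h2ak and Hist1h2bn, 164 bases apart, by 1.97 and 1.02. Hist1h2ad and Hist1h2bf, 174 bases apart, differed by 1.51 and 0.90. The H2A gene had the larger difference in 4 of 4 pairs against young TCL1 and in 3 of 4 for young TCL1 minus wild type. In the spleen the order of Hist1h2ad and Hist1h2bf cannot be read, because Hist1h2ad lay near the ceiling, and Hist1h2ah and Hist1h2bk differed by 1.16 and 1.14. These are differences on each gene's own probe, and no test was made over the pairs.

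**Figure D4:**
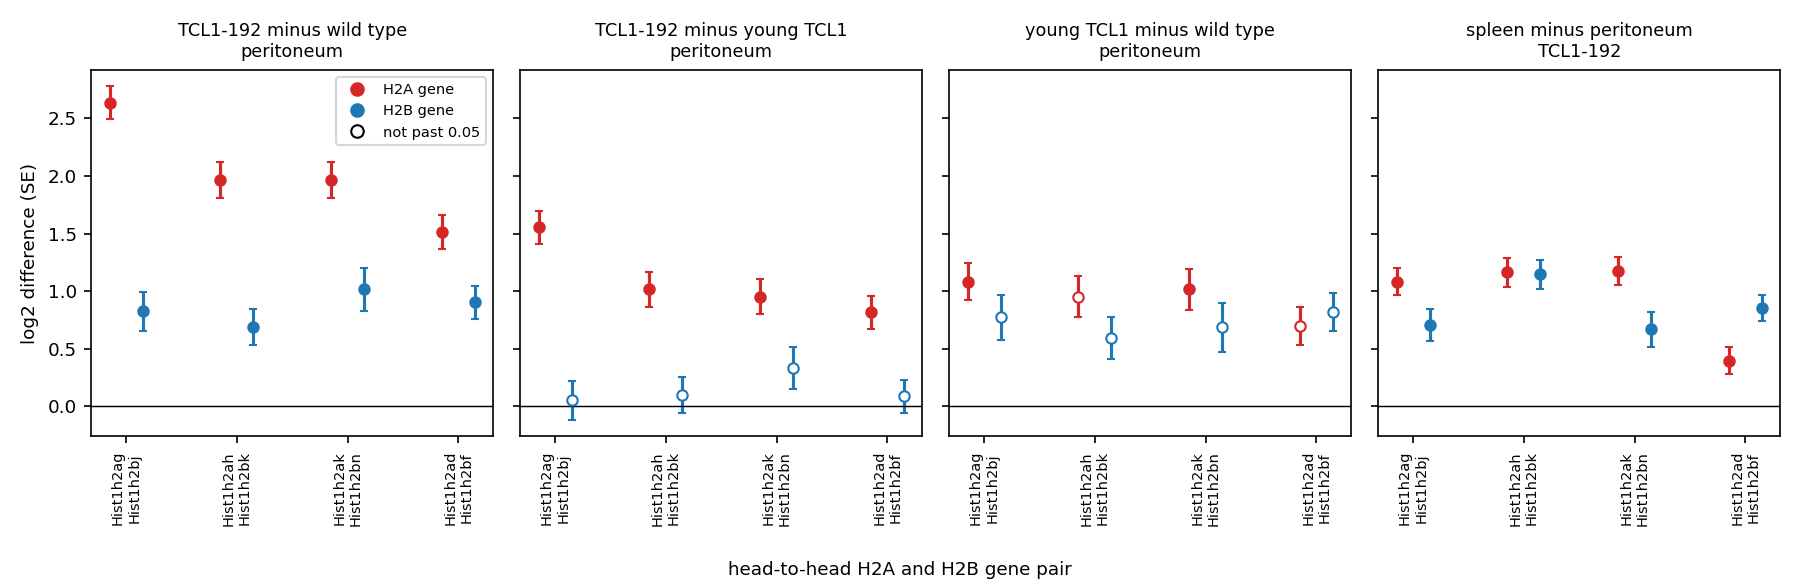
Log2 differences with SE (vertical axis) for 4 head-to-head gene pairs in 4 comparisons, H2A genes in red and H2B genes in blue, filled where the adjusted p was under 0.05. The H2A gene lies above its H2B partner in all 4 pairs in both comparisons of TCL1-192 peritoneal cells. In the spleen Hist1h2ad is near the signal ceiling, which compresses its difference of 0.40.

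By cluster, 32 of 41 tested Hist1 members and 4 of 9 Hist2 members were higher in TCL1-192 than in wild type peritoneum, against 11.8% of all genes. Their medians were 1.11 and 0.47. In the spleen 31 of 41 and 5 of 9 were higher than in the peritoneum, against 15.5% of all genes, with medians of 0.84 and 0.46. Histone genes outside the clusters moved in part. H2afx, which encodes the H2A.X variant that is phosphorylated at DNA breaks, was 4.29-fold higher in TCL1-192 than in wild type peritoneum (adjusted p = 0.00021) and 3.74-fold higher than in young TCL1 (adjusted p = 0.00047). Of 10 tested variants 5 were higher than in wild type cells and 0 lower, against 11.8% of all genes higher and 27.4% in either direction. H2afz, the H2A.Z gene, was 1.82-fold higher (adjusted p = 0.012). In the spleen 3 of the 10 variants were higher and 1 lower than in the peritoneum, against 26.7% of all genes in either direction. The replacement histone gene H3f3b was 1.88-fold higher (adjusted p = 0.0029) and H2afx 1.68-fold (adjusted p = 0.0092). The linker histone gene H1fx, undetected in the peritoneum, was at least 1.97-fold higher (adjusted p = 0.00081). H2afj was 1.70-fold lower (adjusted p = 0.014).

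Of 14 tested genes that make or process histone mRNA, 0 were higher and 2 lower in TCL1-192 than in wild type peritoneum, where 27.4% of all genes passed, with a median of 0.08. In the spleen 4 were higher and 1 lower than in the peritoneum, where 26.7% of all genes passed, with a median of 0.05. Pou2f1, which encodes an octamer-binding OCT factor, differed by -0.90 ± 0.14 on the log2 scale between TCL1-192 and wild type peritoneum (adjusted p = 0.0044) and by 0.93 ± 0.12 between spleen and peritoneum (adjusted p = 0.0021). Slbp was not detected often enough to be tested. Of 17 chaperone and deposition genes, 4 were higher and 1 lower in TCL1-192 than in wild type peritoneum, a share near that of all genes. Asf1b, an H3-H4 chaperone, was 4.64-fold higher (adjusted p = 0.001), and Chaf1b, a subunit of the assembly factor CAF-1, 3.42-fold higher (adjusted p = 0.00091). In the spleen 2 of the 17 were higher and 3 lower than in the peritoneum, a share near the 26.7% of all genes. Chaf1a, another CAF-1 subunit, was 3.21-fold higher there (adjusted p = 0.012).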

How the data were processed

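The 12 arrays and their groups are those listed above. Per the labels' protocols, RNA was extracted with Trizol, cleaned on RNeasy columns with DNase I and made into biotinylated cRNA with the Ambion MessageAmp kit, a type of kit known for oligo(dT) priming, which the labels do not state. The sources used here do not name scanner, export software, chips or genome build. The deposited non-normalized table held a linear signal intensity per probe and, per the file headers, a detection p-value per probe and array. The authors' second deposited table held quantile-normalized intensity values and was used as an alternative.

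From the first table, limma 3.58.1 (R 4.3.3) corrected background with neqc (controls inferred from detection p-values, offset 16), quantile normalized and took log2. Probes with a detection p-value under 0.05 on at least 2 arrays were kept (18100), and the probe with the highest mean stood for each symbol, giving 13190 genes. One model with 8 group means (4 residual degrees of freedom) was fitted to 12 arrays, and its variances were moderated by eBayes (3.13 prior degrees of freedom). Tests were two-sided, adjusted by Benjamini-Hochberg over all genes within each of 9 contrasts, at 0.05. The scripts were tested on simulated data. A fold against a side undetected on all its arrays is a lower bound, with that side at each array's lowest detected signal or its own, whichever is higher. All 59 symbols matched a current gene in the RefSeq table, by synonym, and promoters came from RefSeq (GRCm38.p6).

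Members named were, by comparison and type, up to 3 called members with the largest rise, or the one with the largest moderated t where none was called, and the brightest members of a type. Others were chosen after their values were seen: those with little change, members of head-to-head pairs, and those said so in the text. Members and lists were chosen with earlier results of these data known. Replicate numbers of the TCL1-192 groups are not said to pair samples. Alternatives were median centring, the authors' table, stricter or no filtering of dim probes, the mean of probes, each probe as its own row (added after seeing the data), undetected values at the detection limit, an intensity trend, array weights, a replicate block and each array left out. Depth does not apply to arrays, where the number of arrays limits the precision.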

Additional observations from a re-analysis of the deposited data

How the results depend on the processing

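Among 170 counts of called members over all comparisons and alternatives, 146 stayed within 1.5 times the count reported and 24 moved further. The share of all genes that passed also changed between alternatives, so a higher count of members is not by itself a larger difference. The count for TCL1-192 minus young TCL1 was highest without peritoneal PtC- replicate 1. There the members' median was 0.29, against 0.33 with all arrays. For TCL1-192 minus wild type the count of 36 ranged from 20 to 39 when each array was left out. For TCL1-192 minus young TCL1 the count of 15 ranged from 9 to 21, and the members' median ranged from -0.014 without the young PtC+ array to 0.51 without the young PtC- array; the cause was not tested. For spleen minus peritoneum the count of 36 ranged from 26 to 37. For young TCL1 minus wild type the count of 7 became 3 with median centring, 4 with detection on at least 6 arrays, 12 with array weights, 20 with the authors' table, 24 with an intensity trend, and 0 to 15 with each array left out. The cause was not tested. Leaving out each array gave 0 to 6 members for PtC+ minus PtC- over both tissues, and 0 to 4 in the peritoneum, for the difference between tissues and for TCL1-192 minus wild type between PtC classes.

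With replicate number as a block the counts were 34, 16, 36 and 0 where they had been 36, 15, 36 and 0 (wild type, young TCL1, spleen, PtC over both tissues), and 3 in place of 7 for young TCL1 minus wild type. Replicate 1 minus replicate 2 correlated between TCL1-192 groups by 0.05 to 0.26, and the labels do not say that numbers pair samples. With median centring of the arrays all genes together had a median of 0.21 against wild type, 0.19 against young TCL1 and -0.18 in the spleen, and the members' medians relative to it were 0.97, 0.23 and 0.90. The split of all genes called higher and lower was 1561 and 2052 against wild type, 1047 and 1547 against young TCL1 and 2051 and 1465 in the spleen. With centring it was 2008 and 1734, 1346 and 1241, and 1807 and 1960. The members' median against wild type was 0.73 with the authors' table and 1.30 without the wild type PtC- array. With centring it was 0.42 for PtC in the peritoneum and -0.12 for the difference between tissues. Setting undetected values to the detection limit turned 3 values of dim members that had not been called: Hist1h3c to -0.27 for PtC in the peritoneum, and Hist1h1a to 0.33 for the difference between tissues and -0.34 for genotype between PtC classes. Of the other values of named members 1138 kept direction and side of the threshold, 96 lost and 18 gained the call. Signal over background limits Hist1h1a, Hist1h2ac, Hist1h2bg, Hist1h3c and Hist2h2bb most. It also limits Hist4h4, which was detected on 7 arrays.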
